A study of Homo sapiens with 24 samples.

Results

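This comparison covers A375 melanoma cells that lack PTDSS2 and were given the PTDSS1 inhibitor DS07551382 or its vehicle. Its members are the 6 of 24 poly(A) RNA-seq libraries in the series whose titles name the A375 PTDSS2 knockout, and in them all expressed genes were tested. Of these, 3 came from knockout cells held for 24 h in 0.1 µM DS07551382 and 3 from knockout cells held for 24 h in dimethyl sulfoxide (DMSO), the vehicle. A375 parent cells, wild type in genotype, with 3 inhibitor and 3 vehicle libraries at the same dose and time, served to test whether a response differed between the genotypes. The PTDSS2 knockout of HCT116, a colon cancer line, with the same 6 libraries, served to test whether it differed between cell lines. Each knockout is a single clone (number 54 of A375 and number 3 of HCT116), so clone and genotype cannot be told apart. No separate culture or day is named for the replicates, and the p-values therefore cover the variation among these libraries alone, part of which may be technical.

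Phosphatidylserine is an acidic phospholipid of the inner leaflet of the plasma membrane and of endocytic membranes. PTDSS1 makes it in the endoplasmic reticulum (ER) by base exchange from phosphatidylcholine, and PTDSS2 does so from phosphatidylethanolamine, so a cell without PTDSS2 that receives a PTDSS1 inhibitor has both routes affected. The ER and the Golgi are also where secreted and membrane proteins are inserted, glycosylated and packed into coated vesicles, and their capacity is tuned by transcription. The account below leaves aside the heat shock, stress response and YAP target lists. It goes through the other functions of the expressed genes, with a list of stress-linked transcription factors among them.

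Library totals were 9413904 to 11688267 expected counts with the inhibitor and 8123567 to 9950536 with vehicle, and values below are TMM-scaled counts per 1000000 (CPM) unless stated otherwise. PTDSS2 was at 1.91, 1.17 and 1.80 CPM with the inhibitor, against 0.920, 0.995 and 0.723 CPM with vehicle, and parent cells had 22.8 ± 1.64 CPM with the inhibitor and 23.1 ± 0.951 CPM with vehicle (SD, n = 3 each). The knockout libraries were thus all far below the parent libraries, and the inhibitor libraries lay above the vehicle libraries without overlap, a difference of 0.89 ± 0.35 (edgeR adjusted p = 0.0445) on the log2 scale. That call rests on few reads and was lost when any vehicle library, or inhibitor replicate 1 or 3, was left out, and under 5 other settings. PTDSS1 was at 163, 147 and 165 CPM with the inhibitor, against 177, 165 and 175 CPM with vehicle, a change of -0.12 ± 0.04 (edgeR adjusted p = 0.0145). Its call was lost without vehicle replicate 1 or 3, with DESeq2, and without inhibitor replicate 2, where the log2 fold change was -0.06. PISD, which turns phosphatidylserine into phosphatidylethanolamine in mitochondria, was at 28.4, 31.1 and 29.4 CPM with the inhibitor, against 32.1, 30.5 and 31.9 CPM with vehicle, groups that overlapped (edgeR adjusted p = 0.374). Of 11 melanocyte lineage markers 4 stayed under 1 CPM in all 6 libraries, among them the pigment enzyme gene TYR at 0, and the summed level of the list was 852 to 914 CPM with the inhibitor and 650 to 695 CPM with vehicle. SOX10, the lineage's transcription factor, and the receptor gene ERBB3 made up most of that sum, SOX10 at 450, 406 and 427 CPM with the inhibitor and 353, 316 and 332 CPM with vehicle, ERBB3 at 373, 358 and 366 CPM with the inhibitor and 262, 252 and 254 CPM with vehicle. MITF, another transcription factor of the lineage, lay the other way at 27, 24.4 and 26.3 CPM with the inhibitor, against 29.1, 26.2 and 31.9 CPM with vehicle and was not called, and PAX3 was not called either (edgeR adjusted p = 0.071 and 0.26). All 10 colon epithelium markers were under 1 CPM in all 6 libraries and 5 were at 0, with sums of 0 to 0.599 CPM with the inhibitor and 0.103 to 0.746 CPM with vehicle. The part of this shift in other results was not tested. In bulk RNA, fewer cells of a kind and less RNA per cell cannot be told apart.

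Of 13455 genes tested, 5033 (37.4%) passed the threshold of an adjusted p under 0.05 in edgeR's quasi-likelihood test, 2506 up (18.6%) and 2527 down (18.8%). These shares are the background for every count of list members below and the dashed lines in the plot of list calls, and the median log2 fold change over all genes was 0.01. Most changes were small: the median size among called genes was 0.29 on the log2 scale, 2882 of them (57.3%) changed by less than 1.25-fold, and 142 (1.06%) rose and 106 (0.788%) fell at least 2-fold. In parent cells the same comparison called 12 genes (0.0892%). Each knockout fold change is set against knockout cells with vehicle, whose level for some genes below lay away from that of parent cells with vehicle. Those vehicle groups were not compared by a test. The effect in the knockout differed from that in the parent in 3615 genes (26.9%), upwards in 1752 (13.0%) and downwards in 1863 (13.8%). Calls were unevenly spread over levels. When genes were cut into 5 equal bins by mean CPM, 23.9% of the highest bin rose and 38.9% fell, against 7.84% and 5.2% of the lowest. The median standard error of the log2 fold change was 0.039 in the highest bin and 0.29 in the lowest. In bins by deposited transcript length, 26.1% of the longest transcripts rose and 17.2% fell, against 13.4% and 18.8% of the shortest. Counts under 5 moved by at most 2 members when a single library was left out. The part that read depth and transcript length have in the list counts was not tested.

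**Figure D1:**
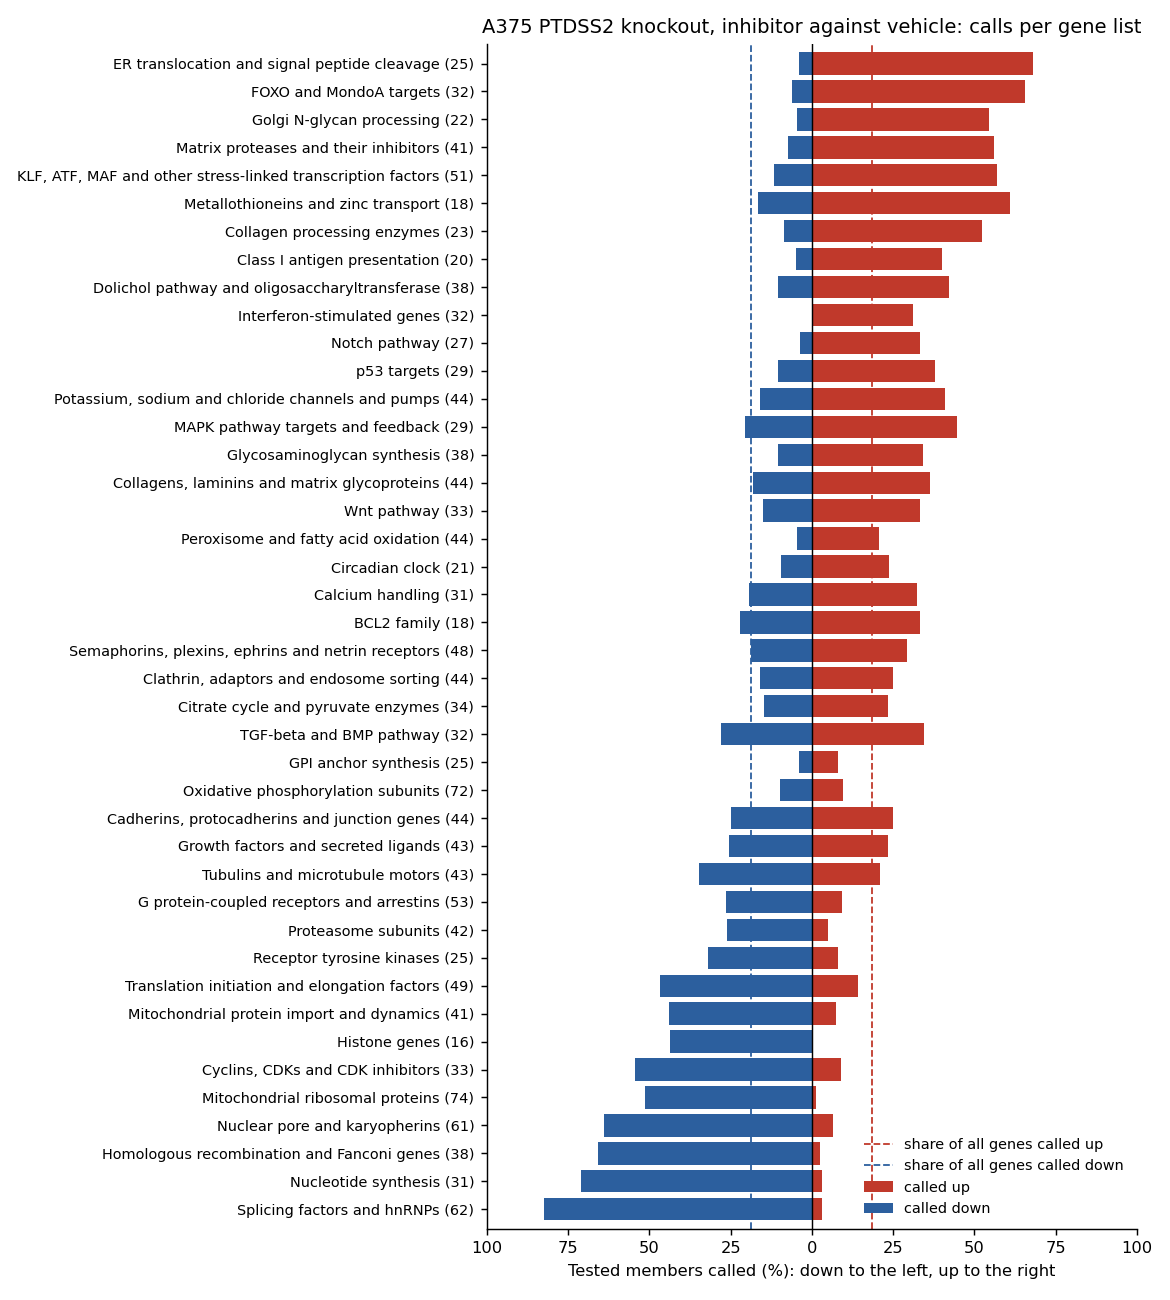
Share of tested members called up (red, to the right) and down (blue, to the left) in the A375 PTDSS2 knockout, inhibitor against vehicle, for 42 gene lists with the number of tested members in brackets. Dashed lines mark the shares over all 13455 genes, 18.6% up and 18.8% down; ER translocation genes reached 68.0% up and splicing factors 82.3% down.

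Most of the genes for protein entry into the ER that were counted rose, and 7 passed in neither direction. Of 25 translocation and signal peptide cleavage genes 17 rose and 1 fell, with a median log2 fold change of 0.18 (0.03 in parent cells). SSR1, a subunit of the translocon-associated protein complex, was at 212, 211 and 214 CPM with the inhibitor, against 133, 140.5 and 125 CPM with vehicle. SEC61A1, the channel-forming subunit of the translocon, was at 667, 651 and 661 CPM with the inhibitor, against 485, 463 and 475 CPM with vehicle. All 3 inhibitor libraries of both genes lay above all vehicle libraries, and the log2 fold changes were 0.68 ± 0.04 (edgeR adjusted p = 1.23e-18) for SSR1 and 0.48 ± 0.03 (edgeR adjusted p = 2.09e-18) for SEC61A1. SSR3, another subunit of the translocon-associated complex, rose by 0.54 ± 0.04, and TRAM1, a translocon partner of nascent chains, by 0.46 ± 0.03 (edgeR adjusted p = 1.1e-15 and 7.49e-15). The effect was above that in the parent for 11 of the 25 genes and below it for 1. The plot of list members gives these values by library.

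Glycosylation genes also rose more often than they fell. Of 38 genes of the dolichol pathway and the oligosaccharyltransferase, which build the N-glycan precursor and attach it, 16 rose and 4 fell (median 0.09). STT3A, a catalytic subunit of the transferase, rose by 0.35 ± 0.03 (edgeR adjusted p = 1.43e-11) and RPN2, an accessory subunit, by 0.25 ± 0.03 (edgeR adjusted p = 5.2e-10). GFPT1, the entry enzyme of hexosamine synthesis, was at 171, 183 and 189 CPM with the inhibitor, against 100.2, 94.4 and 96.4 CPM with vehicle. UAP1, a later enzyme of the same route to UDP-N-acetylglucosamine, was at 162, 166 and 164 CPM with the inhibitor, against 218, 226 and 229.5 CPM with vehicle. These enzymes of 1 route went opposite ways, with groups that did not overlap: 0.90 ± 0.04 (edgeR adjusted p = 1.9e-20) for GFPT1 and -0.45 ± 0.03 (edgeR adjusted p = 1.12e-14) for UAP1. Among 22 Golgi N-glycan processing genes 12 rose and 1 fell (median 0.22). ST6GAL1, which adds the terminal sialic acid, was at 99.6, 98.2 and 98.2 CPM with the inhibitor, against 64.1, 58.2 and 56.6 CPM with vehicle, a clear separation of the groups and a log2 fold change of 0.72 ± 0.05 (edgeR adjusted p = 5.7e-16). Parent cells with vehicle had 87.0 CPM of ST6GAL1 on average. Smaller rises were seen for B4GALT5, a galactosyltransferase, at 0.47 ± 0.03, for MGAT4B, a branching enzyme, at 0.43 ± 0.04, and for the UDP-galactose carrier SLC35A2 at 0.51 ± 0.05 (edgeR adjusted p = 6.17e-15, 1.1e-12 and 3.37e-10). Glycosylphosphatidylinositol (GPI) anchor synthesis stood apart from these lists: 2 of 25 genes rose and 1 fell, both shares below the background. The called ones were PIGS at 0.21 ± 0.05 and PIGT at 0.14 ± 0.05, both subunits of the GPI transamidase, and PIGW, an inositol acyltransferase, at -0.21 ± 0.08 (edgeR adjusted p = 0.000424, 0.0175 and 0.0286). PIGT lost its call without vehicle replicate 1 or inhibitor replicate 3, and PIGW when replicate 2 or 3 of either group was left out, with library size alone and with no filter on low counts. DESeq2 called neither.

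More genes of sulphation and matrix biosynthesis rose than fell. Of 38 glycosaminoglycan synthesis genes 13 rose and 4 fell (median 0.07). SLC26A2, the sulphate transporter that feeds proteoglycan sulphation, was at 689.8, 699.9 and 682 CPM with the inhibitor, against 494, 496 and 488 CPM with vehicle. Parent cells with vehicle had 653.5 CPM of SLC26A2 on average. PAPSS2, which makes the sulphate donor PAPS, was at 48.8, 52.4 and 56 CPM with the inhibitor, against 29.1, 30.6 and 31.1 CPM with vehicle. In both genes the lowest inhibitor library exceeded the highest vehicle library, and the log2 fold changes were 0.49 ± 0.03 (edgeR adjusted p = 1.68e-19) and 0.80 ± 0.07 (edgeR adjusted p = 1.69e-12). CHPF, a chondroitin polymerising factor, rose by 0.47 ± 0.04 and UGDH, which makes UDP-glucuronate, by 0.57 ± 0.06 (edgeR adjusted p = 8.25e-12 and 5.62e-10). Among 23 collagen processing enzymes 12 rose and 2 fell (median 0.15). They included the prolyl hydroxylase subunit P4HA1 at 0.68 ± 0.06 (edgeR adjusted p = 1.15e-13), the prolyl isomerase PPIB at 0.33 ± 0.03, the lysyl hydroxylase PLOD3 at 0.32 ± 0.03 and MIA3 (TANGO1), which loads collagen into carriers leaving the ER, at 0.45 ± 0.04 (edgeR adjusted p = 3.28e-12, 2.43e-11 and 4.16e-11 for the last 3).

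**Figure D2:**
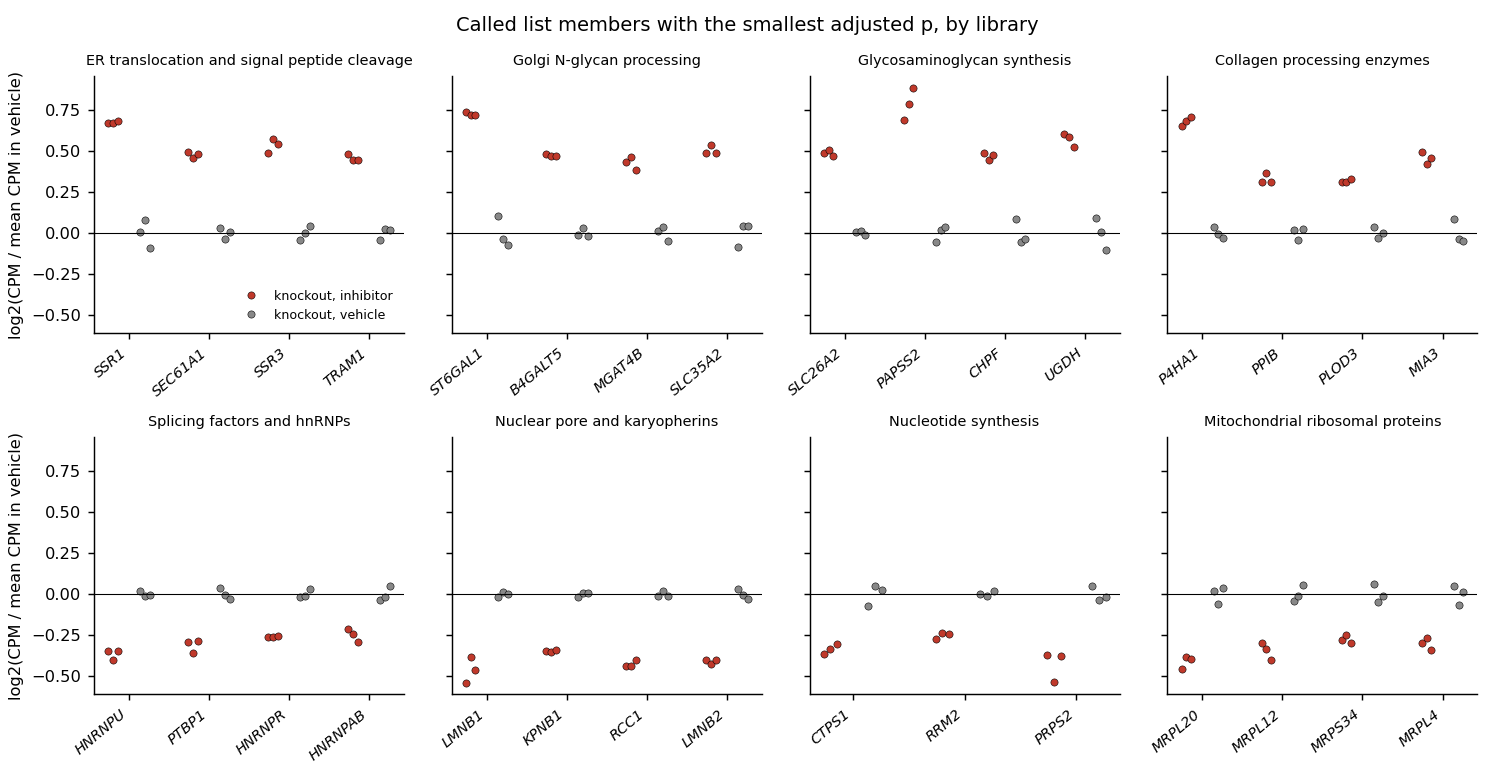
Called members among the 4 with the smallest adjusted p in 8 lists, as log2 of the library's CPM over the mean CPM of the knockout vehicle libraries; each point is 1 library of the A375 PTDSS2 knockout, inhibitor in red and vehicle in grey. In the upper row (secretory and matrix lists) every inhibitor library is above every vehicle library, and in the lower row (nuclear, nucleotide and mitochondrial lists) every one is below. This separation follows from the choice of members by adjusted p, and the shared direction of a row from the choice of lists. Lists not drawn here had such members on both sides, as GFPT1 up and UAP1 down in the dolichol list.

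Single genes of transport between ER and Golgi are described here outside any list. SEC24D was taken from the 10 largest rises, and SEC24A and KDELR3 were chosen after their values were seen. SEC24D, a cargo-binding subunit of the COPII coat that buds from the ER, was at 123, 119 and 119 CPM with the inhibitor, against 38.5, 34.9 and 37.6 CPM with vehicle, with a log2 fold change of 1.70 ± 0.05 (edgeR adjusted p = 2.05e-27). Parent cells had 35.4 ± 1.46 CPM with the inhibitor and 34.7 ± 1.11 CPM with vehicle (SD, n = 3 each), so the raised level was seen in the knockout with inhibitor and in no other A375 group. SEC24A, its paralogue, was at 127, 120.1 and 132 CPM with the inhibitor, against 70.3, 67.3 and 71.1 CPM with vehicle. KDELR3, a receptor that returns ER residents from the Golgi, was at 26.4, 25.6 and 23 CPM with the inhibitor, against 11.4, 10.3 and 11.1 CPM with vehicle. Neither gene's groups overlapped, and the log2 fold changes were 0.86 ± 0.05 (edgeR adjusted p = 9.28e-19) and 1.18 ± 0.10 (edgeR adjusted p = 4.36e-13). Also among the 10 largest rises, which were picked from genes without overlap, were GOLGA7B and WIPI1. GOLGA7B, a partner of palmitoyltransferases, was at 19.8, 20.0 and 20.4 CPM with the inhibitor, against 4.60, 6.84 and 6.61 CPM with vehicle (1.75 ± 0.13, edgeR adjusted p = 3.52e-14). WIPI1, which binds phosphoinositides on forming autophagosomes, was at 27.3, 29.3 and 25.4 CPM with the inhibitor, against 7.67, 7.96 and 8.57 CPM with vehicle, and rose by 1.75 ± 0.10 (edgeR adjusted p = 1.29e-17). Of 18 metallothionein and zinc transport genes 11 rose and 3 fell (median 0.19). SLC39A7, which releases zinc from the ER, rose by 0.67 ± 0.04 (edgeR adjusted p = 9.24e-18), SLC30A5, which loads zinc into the early secretory pathway, by 0.43 ± 0.04, and SLC39A14 by 0.23 ± 0.04 (edgeR adjusted p = 1.27e-11 and 1.12e-05). The metallothionein MT2A, a zinc-binding protein of the cytosol, went the other way at 220.2, 232 and 221 CPM with the inhibitor, against 348, 342 and 355 CPM with vehicle (-0.64 ± 0.03, edgeR adjusted p = 6.46e-20); metallothioneins are near-identical and reads may be shared between them.

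The start regions of these genes were read for motifs of ER stress factors. RefSeq windows from 250 bases before to 50 after the start (build GRCh38.p14) were at hand for 10774 of the 13455 genes tested (80.1%), and each motif was searched on both strands. The ERSE, bound by ATF6 with NF-Y, is CCAAT and CCACG separated by 9 bases; it was found in 9 of 2038 windows of genes that rose, 0 of 2083 of genes that fell and 5 of 6653 of genes not called, and in 0.0806% of all 27305 windows. The ERSE-II, ATTGG and CCACG with 1 base between them, was found in 4 of 2038, 1 of 2083 and 6 of 6653, and in 0.0549% of all windows. TGACGTGGC, the core bound by XBP1 and ATF6, which contains the shorter motif TGACGTG and, on its other strand, CCACG, was found in 22 of 2038 (1.08%), 2 of 2083 (0.0960%) and 24 of 6653 (0.361%), and in 0.293% of all windows. The rising genes with this core were largely of the secretory pathway or glycosylation: KDELR3, SEC24A, SEC23A, SEC16A, GOLGA5, GOLGA1, ARF1, STX5, TVP23C, SLC30A5, DNAJC10, SRP19, UBE2J1, DHDDS and NANS were 15 of the 22. The 22 also held the readthrough gene TVP23C-CDRT4 and the antisense gene TPT1-AS1, which may share a match with their neighbours TVP23C and TPT1. The falling ones were ETS2 and GOT2. Secretory genes with the core that were not called included SCFD1 and TM9SF3. The share of secretory genes over all genes was not counted. Below, 4 windows with an ERSE or ERSE-II and 3 with the core are shown 5′ to 3′ on the gene's strand, in lower case with the motif in capitals, as examples of rising genes chosen after their values were seen.
HSPA5: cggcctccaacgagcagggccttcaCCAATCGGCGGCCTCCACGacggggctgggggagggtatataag
XBP1: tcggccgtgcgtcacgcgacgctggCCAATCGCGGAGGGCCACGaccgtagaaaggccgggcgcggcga
ERO1B: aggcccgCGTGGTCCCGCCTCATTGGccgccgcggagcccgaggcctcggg
HERPUD1: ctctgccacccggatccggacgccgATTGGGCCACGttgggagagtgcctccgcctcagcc
KDELR3: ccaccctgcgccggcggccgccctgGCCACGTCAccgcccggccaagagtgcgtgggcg
SEC24A: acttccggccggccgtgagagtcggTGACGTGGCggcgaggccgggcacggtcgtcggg
GOLGA5: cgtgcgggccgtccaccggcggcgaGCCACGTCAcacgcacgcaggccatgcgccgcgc
They lie at chr9:125241366-125241434 (- strand), chr22:28800578-28800646 (- strand), chr1:236282158-236282208 (- strand), chr16:56932000-56932060 (+ strand), chr22:38468024-38468082 (+ strand), chr5:134648581-134648639 (+ strand) and chr14:92794100-92794158 (+ strand), in that order. In ERO1B, KDELR3 and GOLGA5 the motif runs on the opposite strand, so the capitals show its reverse complement. These 7 genes changed by 0.76 ± 0.02 (HSPA5, the ER chaperone BiP), 0.96 ± 0.04 (XBP1, a transcription factor of the ER), 0.88 ± 0.06 (ERO1B, an ER oxidase), 1.17 ± 0.05 (HERPUD1, of ER-associated degradation), 1.18 ± 0.10, 0.86 ± 0.05 and 0.53 ± 0.07 (GOLGA5, a Golgi tether), each with an effect above that in the parent. All 7 matches lie before the annotated start. A match is a description of the letters and not evidence that a factor was bound.

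The largest rises, drawn by library in the plot of largest changes, were led by genes that NF-κB is known to activate. Groups of these largest rises do not overlap by the rule that picked them. C3, the central complement protein, was at 15.7, 13.4 and 13.9 CPM with the inhibitor, against 2.15, 2.11 and 1.14 CPM with vehicle. BIRC3, an inhibitor of apoptosis that ubiquitinates NIK, was at 33, 32.7 and 34 CPM with the inhibitor, against 5.62, 6.71 and 4.44 CPM with vehicle. CXCL8, the chemokine interleukin 8, was at 61.8, 59.9 and 64.8 CPM with the inhibitor, against 12.9, 13.8 and 14.7 CPM with vehicle. In all 3 genes every inhibitor library was several times any knockout vehicle library, and the log2 fold changes were 2.99 ± 0.18 (edgeR adjusted p = 4.26e-17), 2.59 ± 0.11 (edgeR adjusted p = 5.51e-22) and 2.17 ± 0.08 (edgeR adjusted p = 3.95e-25). Mean levels in parent cells with vehicle were 4.67 CPM for C3, above the knockout with vehicle, and 2.58 CPM for BIRC3 and 7.62 CPM for CXCL8, below it. RELB, a subunit of the non-canonical NF-κB dimer, was at 32.6, 35.8 and 39.3 CPM with the inhibitor, against 10.9, 14.2 and 12.6 CPM with vehicle (1.53 ± 0.10, edgeR adjusted p = 6.97e-17), and NFKB2, which encodes its partner, was at 135, 123 and 131 CPM with the inhibitor, against 56.8, 54.2 and 53.3 CPM with vehicle (1.24 ± 0.05, edgeR adjusted p = 1.66e-23). The inhibitors of the pathway rose as well: NFKBIA was at 42.6, 46.5 and 41.1 CPM with the inhibitor, against 17.3, 18.3 and 18.1 CPM with vehicle. TNFAIP3, the deubiquitinase A20, was at 19, 20.9 and 21.1 CPM with the inhibitor, against 7.67, 9.20 and 9.5 CPM with vehicle. These groups were again apart, with log2 fold changes of 1.28 ± 0.08 and 1.22 ± 0.11 (edgeR adjusted p = 2.59e-17 and 6.38e-12). ICAM1, the adhesion receptor for leukocyte integrins, was at 67, 70.9 and 68.6 CPM with the inhibitor, against 30.9, 24.7 and 29.5 CPM with vehicle (1.27 ± 0.07, edgeR adjusted p = 1.64e-19). NFKB1, which encodes the canonical subunit, and the chemokine CXCL1 changed little, at 0.13 ± 0.05 and -0.17 ± 0.06 (edgeR adjusted p = 0.0228 and 0.0329). NFKB1 was not called when replicate 1 of either group or vehicle replicate 2 was left out, nor CXCL1 without vehicle replicate 3 or any one inhibitor library. DESeq2 called neither, and CXCL1 was also not called with library size alone or with no filter on low counts. NFKB1, NFKB2, NFKBIA, TNFAIP3 and CXCL1 were chosen after their values were seen. Effects above those in the parent were found for C3, BIRC3, CXCL8, RELB, NFKB2, NFKBIA, TNFAIP3 and ICAM1.

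Among the 103 windows of genes that rose at least 2-fold, 6 (5.83%) held GGAATTTCC, a binding motif of NF-κB, against 0.736% of all rising genes, 0.336% of falling genes, 0.361% of genes not called and 0.472% of all windows. The 6 genes were CXCL8, CXCL3, CXCL2, OPTN, NFKBIA and ICAM1, of which CXCL2 lost its call without vehicle replicate 1 and with DESeq2, and CXCL1 had the motif too. The log2 fold changes of CXCL3 and CXCL2 were 1.36 ± 0.32 and 1.11 ± 0.32. GGGATTTCC, a close variant, was in 2 of the 103, BIRC3 and TNFAIP3, and in 0.385% of all windows; the looser NF-κB consensus, searched by name, was in 15.5% of the 103, in 15.8% of the windows of genes that fell at least 2-fold and in 12.7% of all tested genes. The motif in 4 of these genes is in capitals in the following windows, written 5′ to 3′ on the gene's strand.
CXCL8: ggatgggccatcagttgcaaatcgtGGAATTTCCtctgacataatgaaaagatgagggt
NFKBIA: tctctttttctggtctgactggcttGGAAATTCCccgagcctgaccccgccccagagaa
ICAM1: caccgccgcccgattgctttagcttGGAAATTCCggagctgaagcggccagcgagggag
BIRC3: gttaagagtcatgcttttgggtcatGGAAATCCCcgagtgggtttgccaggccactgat
They lie at chr4:73740453-73740511 (+ strand), chr14:35404797-35404855 (- strand), chr19:10270909-10270967 (+ strand) and chr11:102317260-102317318 (+ strand), in that order, and the last 3 carry the motif on the opposite strand. Of the 106 genes that fell at least 2-fold, 76 had a window, and 18 of these (23.7%) held GGAATG, a motif of TEAD factors, against 10.7% of tested genes and 14% of all windows. Among all falling genes the share was 10.9%, the same as among genes not called, and among genes that rose at least 2-fold it was 10.7%. TTTGAA, part of the cell cycle homology region of late cell cycle genes, was in 8.05% of rising, 13% of falling and 9.84% of tested genes, and in 15.4% of all windows. Among genes changed at least 2-fold the order was the other way, 12.6% of those that rose and 10.5% of those that fell. In all, 21 motifs were searched, and motifs to describe were chosen after the shares were seen.

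**Figure D3:**
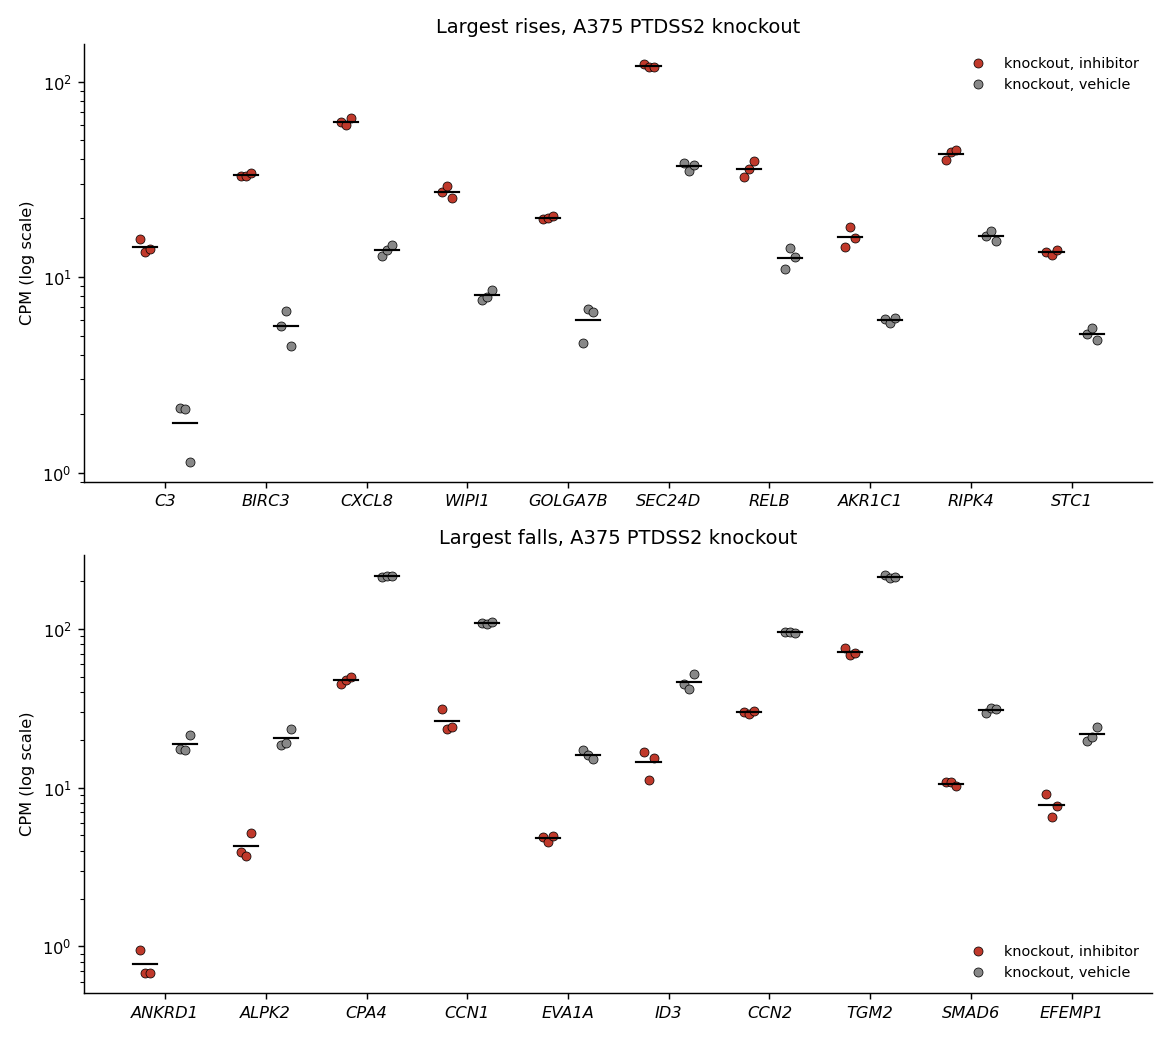
CPM (log scale) of the 10 genes with the largest rises and the 10 with the largest falls among those past the threshold, with a mean of at least 8 CPM and groups that do not overlap; each point is 1 library of the A375 PTDSS2 knockout, inhibitor (red) left of vehicle (grey), and the line is the mean of 3. Rises run from C3 at 2.99 to STC1 at 1.40 and falls from ANKRD1 at -4.60 to EFEMP1 at -1.49 on the log2 scale.

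Interferon-stimulated and antigen presentation genes rose more often than fell, by smaller amounts. Of 32 interferon-stimulated genes 10 rose and 0 fell (median 0.08), among them the exonuclease ISG20 at 0.86 ± 0.07 (edgeR adjusted p = 2.68e-13), the transcription factor IRF1 at 0.73 ± 0.10 (edgeR adjusted p = 3.4e-08), STAT2, a transcription factor of interferon signalling, at 0.45 ± 0.07 and the guanylate-binding protein GBP2 at 0.74 ± 0.12 (edgeR adjusted p = 1.06e-06 and 5.4e-06). Of 20 class I presentation genes 8 rose and 1 fell (median 0.16). HLA-B was at 153, 149 and 149.6 CPM with the inhibitor, against 113, 118 and 112 CPM with vehicle. TAPBP, the tapasin that bridges class I to the peptide transporter, was at 63.8, 67.9 and 69 CPM with the inhibitor, against 49.8, 40.7 and 48.8 CPM with vehicle. Neither pair of groups overlapped (0.40 ± 0.04 and 0.52 ± 0.06, edgeR adjusted p = 2.94e-11 and 5.11e-09). HLA-C changed by 0.30 ± 0.04 (edgeR adjusted p = 6.13e-07); class I genes are close copies, so reads may be split between them. Among the other large rises, RIPK4, a kinase of keratinocyte differentiation, was at 39.7, 43.5 and 44.7 CPM with the inhibitor, against 16.2, 17.3 and 15.4 CPM with vehicle. AKR1C1, a steroid-reducing enzyme with near-identical paralogues, was at 14.3, 18 and 15.9 CPM with the inhibitor, against 6.14, 5.84 and 6.20 CPM with vehicle. STC1, a secreted glycoprotein, was at 13.5, 12.9 and 13.8 CPM with the inhibitor, against 5.11, 5.47 and 4.75 CPM with vehicle. All 3 are among the 10 largest rises, picked from genes without overlap, and rose by 1.40 ± 0.09, 1.41 ± 0.14 and 1.40 ± 0.14 (edgeR adjusted p = 2.38e-17, 4e-11 and 2.84e-11).

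Extracellular matrix genes were mixed and their proteases mostly higher. Of 44 collagen, laminin and matrix glycoprotein genes 16 rose and 8 fell (median 0.24). LAMA4, a laminin chain of vessel and nerve basement membranes, was at 171, 149 and 167 CPM with the inhibitor, against 110.0, 101 and 101 CPM with vehicle. COL5A2, a chain of the fibril-nucleating collagen V, was at 225, 219.7 and 218 CPM with the inhibitor, against 384, 368 and 370.1 CPM with vehicle. The groups were apart in opposite directions, 0.64 ± 0.05 (edgeR adjusted p = 1.11e-14) for LAMA4 and -0.76 ± 0.03 (edgeR adjusted p = 3.68e-22) for COL5A2. Mean levels in parent cells with vehicle were 130.8 CPM for LAMA4 and 268.1 CPM for COL5A2. SPARC, a matrix glycoprotein, rose by 0.28 ± 0.03 and COL12A1, a fibril-associated collagen, changed by -0.50 ± 0.04 (edgeR adjusted p = 3.8e-12 and 7.33e-14). Mean COL12A1 in the knockout was 115.1 CPM with the inhibitor and 162.8 CPM with vehicle, and 118.5 CPM in parent cells with vehicle. Of 41 matrix proteases and inhibitors 23 rose and 3 fell (median 0.28). SERPINE2, a thrombin and urokinase inhibitor and among the most abundant transcripts here, was at 3498, 3515 and 3604 CPM with the inhibitor, against 2674, 2554 and 2717 CPM with vehicle (0.42 ± 0.02, edgeR adjusted p = 1.41e-18). ADAMTS1, a proteoglycan-cleaving protease, was at 12.1, 13.7 and 13.7 CPM with the inhibitor, against 4.81, 5.72 and 5.58 CPM with vehicle (1.30 ± 0.14, edgeR adjusted p = 6.21e-10). Mean ADAMTS1 in parent cells with vehicle was 9.40 CPM. The metalloprotease ADAM19 rose by 0.80 ± 0.06 and the lysosomal protease CTSD by 0.36 ± 0.03 (edgeR adjusted p = 6.23e-14 and 1.36e-11).

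Adhesion and guidance lists had calls on both sides. Of 44 cadherin and junction genes 11 rose and 11 fell; PKP2, a desmosomal plaque protein, was at 11.4, 13.4 and 11.6 CPM with the inhibitor, against 31.4, 31.4 and 31.6 CPM with vehicle (-1.38 ± 0.09, edgeR adjusted p = 1.1e-16), and ALCAM, an adhesion molecule of melanoma, changed by -0.58 ± 0.07 (edgeR adjusted p = 7.9e-09). Parent cells with vehicle had 15.8 CPM of PKP2 on average. Of 48 semaphorins, plexins, ephrins and netrin receptors 14 rose and 9 fell (29.2% and 18.8%), the falls at the share over all genes. NRP2, a receptor of secreted semaphorins and VEGF-C, was at 164, 155 and 166 CPM with the inhibitor, against 90.4, 89.1 and 89 CPM with vehicle. SEMA3B, a secreted ligand of the class, rose by 0.53 ± 0.04 (edgeR adjusted p = 7.76e-15), whereas SEMA3A changed by -0.69 ± 0.06 (edgeR adjusted p = 1.25e-12) and the ephrin receptor EPHA2 by -0.50 ± 0.03 (edgeR adjusted p = 3.6e-18). Mean SEMA3A in the knockout was 52.1 CPM with the inhibitor and 84.2 CPM with vehicle, and 56.3 CPM in parent cells with vehicle. For EPHA2 these means were 338.7, 479.7 and 363 CPM. NRP2 was higher in every inhibitor library (0.85 ± 0.04, edgeR adjusted p = 2.27e-19). ITGB8, the integrin subunit that activates latent TGF-β, was at 244, 242 and 248 CPM with the inhibitor, against 112, 102 and 110.4 CPM with vehicle, a rise of 1.17 ± 0.04 (edgeR adjusted p = 1.35e-26) without overlap. Receptor tyrosine kinases mostly fell where they changed, 8 of 25 down and 2 up. AXL, the receptor of the phosphatidylserine-binding ligand GAS6, was at 271, 269.8 and 277 CPM with the inhibitor, against 482, 466 and 486 CPM with vehicle. NGFR, the neurotrophin receptor of the neural crest, which the list held beside the kinases, was at 72.1, 69.8 and 69.7 CPM with the inhibitor, against 144, 138 and 133 CPM with vehicle. Both were lower in all inhibitor libraries (-0.81 ± 0.03 and -0.97 ± 0.04, edgeR adjusted p = 1.09e-24 and 3.74e-21). The called rises were ERBB3, the neuregulin receptor, at 0.51 ± 0.03 and the collagen receptor DDR2 at 0.32 ± 0.05 (edgeR adjusted p = 7.15e-18 and 9.36e-07). Mean ERBB3 in the knockout was 365.6 CPM with the inhibitor and 256 CPM with vehicle, and 334.9 CPM in parent cells with vehicle.

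Of 43 growth factors and secreted ligands 10 rose (23.3%) and 11 fell (25.6%), against 18.6% and 18.8% over all genes. GDNF, a neurotrophic factor, was at 15.6, 13.2 and 15.7 CPM with the inhibitor, against 6.03, 6.34 and 5.47 CPM with vehicle. ADM, the vasodilator adrenomedullin, was at 8.28, 8.64 and 10.7 CPM with the inhibitor, against 21.2, 22.4 and 22.9 CPM with vehicle. Each was separated between the groups, at 1.32 ± 0.13 (edgeR adjusted p = 2.92e-11) and -1.25 ± 0.11 (edgeR adjusted p = 2.38e-12). VEGFA, the endothelial growth factor, rose by 0.61 ± 0.04 and FSTL1, a follistatin-like secreted protein, changed by -1.16 ± 0.12 (edgeR adjusted p = 1.28e-14 and 7.91e-11). A375 carries an activated BRAF, and of 29 MAPK targets and feedback genes 13 rose and 6 fell (median 0.12), shares of 44.8% and 20.7% against the 18.6% and 18.8% over all genes. PHLDA1, a MAPK-induced adaptor, was at 772, 768 and 784 CPM with the inhibitor, against 462, 465 and 467 CPM with vehicle. DUSP4, a phosphatase of MAP kinases, was at 442, 434 and 431 CPM with the inhibitor, against 293, 303 and 293 CPM with vehicle; CCND1, cyclin D1, was at 473, 459 and 482 CPM with the inhibitor, against 684, 697 and 686 CPM with vehicle. The groups did not overlap in any of them: 0.74 ± 0.03 (edgeR adjusted p = 2.44e-24), 0.56 ± 0.03 (edgeR adjusted p = 7e-20) and -0.55 ± 0.03 (edgeR adjusted p = 7.77e-21). The cytokine LIF rose by 0.71 ± 0.05 (edgeR adjusted p = 2.48e-14).

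In developmental pathways, 11 of 33 Wnt genes rose and 5 fell, or 2 without vehicle replicate 1 or inhibitor replicate 3. The receptors FZD1 and FZD2 went opposite ways, at 0.81 ± 0.05 (edgeR adjusted p = 9.24e-18) and -0.75 ± 0.07 (edgeR adjusted p = 3.81e-11). DKK1, a secreted Wnt antagonist, was at 162, 159 and 165 CPM with the inhibitor, against 294, 311 and 308 CPM with vehicle, lower in all inhibitor libraries (-0.91 ± 0.03, edgeR adjusted p = 6.03e-25). Parent cells with vehicle had 172.6 ± 2.7 CPM of DKK1 (SD, n = 3), nearer to the knockout with inhibitor than to the knockout with vehicle. TNFRSF19, a Wnt target receptor, rose by 0.75 ± 0.06 (edgeR adjusted p = 3.32e-13). Of 27 Notch genes 9 rose and 1 fell, led by the ligand JAG1 at 0.72 ± 0.06 (edgeR adjusted p = 5.63e-13) and the γ-secretase subunit NCSTN at 0.29 ± 0.04 (edgeR adjusted p = 1.27e-06); the adaptor NUMB was at 0.26 ± 0.07 and the protease ADAM10 at 0.12 ± 0.04 (edgeR adjusted p = 0.00468 and 0.00878). Without vehicle replicate 2 or 3, 5 Notch genes rose, and ADAM10 was not called without vehicle replicate 1. In the TGF-β and BMP list 11 of 32 rose and 9 fell (median 0.04), and BMP-induced members were among the falls. The genes named next all fell and do not stand for the whole list. SMAD6, an inhibitor of BMP signalling, was at 10.8, 10.9 and 10.2 CPM with the inhibitor, against 29.4, 31.9 and 31.2 CPM with vehicle. ID3, an inhibitor of basic helix-loop-helix factors, was at 16.7, 11.2 and 15.5 CPM with the inhibitor, against 44.9, 42.1 and 52.4 CPM with vehicle. Both are among the 10 largest falls, picked from genes without overlap (-1.54 ± 0.10 and -1.69 ± 0.12, edgeR adjusted p = 8.14e-17 and 6.44e-09). ID1 changed by -0.67 ± 0.06, the co-receptor ENG by -0.34 ± 0.04 and the ubiquitin ligase SMURF2 by -0.59 ± 0.05 (edgeR adjusted p = 4.78e-12, 5.62e-09 and 7.26e-13). Mean ENG in the knockout was 102.3 CPM with the inhibitor and 129 CPM with vehicle, and 104.6 CPM in parent cells with vehicle.

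Genes that FOXO factors or MondoA control had the highest median of the 42 lists drawn, as the plot of list medians shows. Of 32 such genes 21 rose and 2 fell, with a median of 0.46 (-0.03 in parent cells). KLF9, a Krüppel-like factor, was at 112, 124 and 116 CPM with the inhibitor, against 72.4, 70.1 and 69.1 CPM with vehicle. BTG1, an antiproliferative factor, was at 119, 120.3 and 120.4 CPM with the inhibitor, against 83, 69.9 and 82.4 CPM with vehicle. CCNG2, an atypical cyclin of quiescent cells, was at 28.7, 27.9 and 29.9 CPM with the inhibitor, against 12.6, 12.9 and 15 CPM with vehicle. Every inhibitor library exceeded every vehicle library in these 3 (0.73 ± 0.05, 0.61 ± 0.05 and 1.09 ± 0.09, edgeR adjusted p = 1.24e-16, 9.29e-14 and 1.08e-12). IRS1, an insulin receptor substrate, was at 21.1, 16.4 and 18.2 CPM with the inhibitor, against 38.5, 45 and 40.1 CPM with vehicle, and fell by 1.15 ± 0.08 (edgeR adjusted p = 6.37e-15). Of 51 KLF, ATF, MAF and other stress-linked transcription factors 29 rose and 6 fell (median 0.18). CEBPB, an activator of inflammatory and adipogenic genes, rose by 0.93 ± 0.05 (edgeR adjusted p = 6.98e-20), KLF4 by 0.97 ± 0.07 (edgeR adjusted p = 1e-14), and CREB3L2, an ER-anchored factor of secretory genes, by 0.68 ± 0.05 (edgeR adjusted p = 1.17e-14). In the 21 clock genes 5 rose (23.8%) and 2 fell (9.5%), against 18.6% and 18.8% over all genes. The repressor BHLHE40 was at 27.8, 29.5 and 29 CPM with the inhibitor, against 15, 11.8 and 14.2 CPM with vehicle (1.06 ± 0.09, edgeR adjusted p = 6.66e-13). NPAS2 changed by 0.25 ± 0.04 and CRY1 by -0.26 ± 0.07 (edgeR adjusted p = 1.76e-05 and 0.00233). RORA, at 0.79 ± 0.23, was under 5 CPM and not called by DESeq2, and 3 clock genes rose without vehicle replicate 1.

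**Figure D4:**
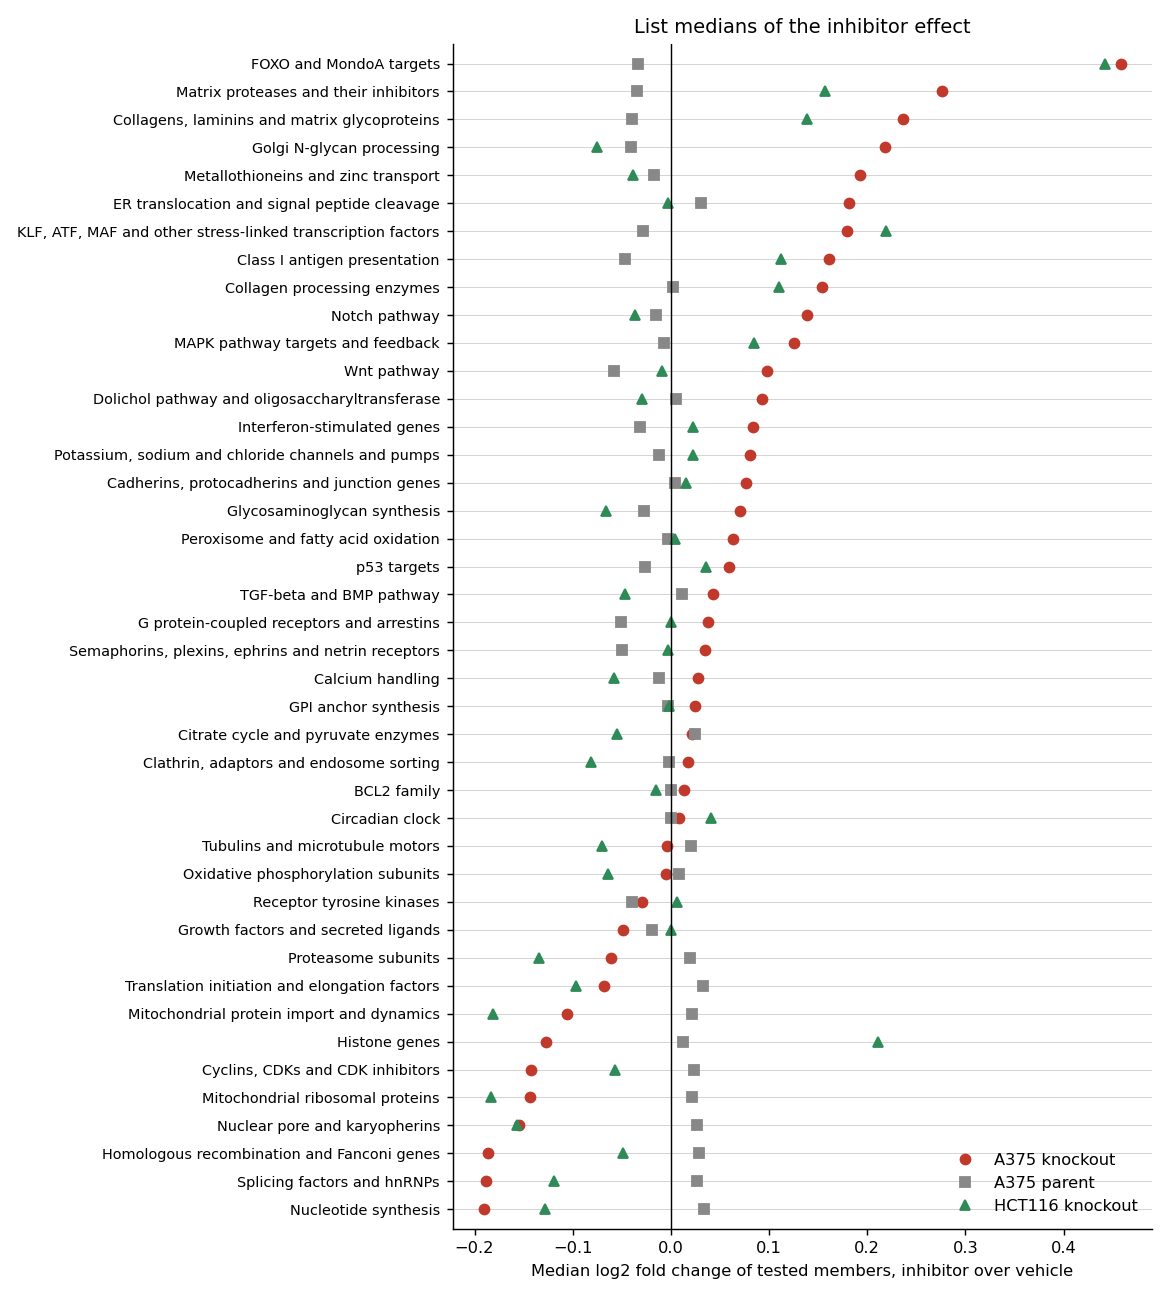
Median log2 fold change (inhibitor over vehicle) of the tested members of 42 gene lists in the A375 knockout (red circles), the HCT116 knockout (green triangles) and A375 parent cells (grey squares). A375 knockout medians run from -0.19 (nucleotide synthesis) to 0.46 (FOXO and MondoA targets), whereas parent medians lie between -0.06 and 0.03.

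The RNA processing machinery was lower in most of its members. Of 62 splicing factors and hnRNPs 51 fell and 2 rose (median -0.19, against 0.03 in parent cells). HNRNPU, a nuclear matrix RNA-binding protein, was at 1153, 1108 and 1154 CPM with the inhibitor, against 1486, 1454 and 1461 CPM with vehicle. PTBP1, a splicing repressor, was at 722, 690.2 and 725 CPM with the inhibitor, against 907, 881 and 867 CPM with vehicle. The inhibitor libraries lay below all vehicle libraries by modest amounts (-0.37 ± 0.02 and -0.31 ± 0.03, edgeR adjusted p = 4.61e-16 and 3.31e-13), and HNRNPR and HNRNPAB changed by -0.26 ± 0.03 and -0.25 ± 0.03 (edgeR adjusted p = 1.41e-10 and 6.4e-10). Of 61 nuclear pore, lamina and karyopherin genes 39 fell and 4 rose (median -0.15). KPNB1, importin β, was at 772, 769.6 and 775 CPM with the inhibitor, against 972, 990.0 and 989.8 CPM with vehicle. LMNB1, a B-type lamin, was at 244, 272 and 258 CPM with the inhibitor, against 350.4, 359 and 356 CPM with vehicle. These groups too were apart (-0.35 ± 0.03 and -0.46 ± 0.03, edgeR adjusted p = 3.06e-15 and 2.47e-15); LMNB2 and RCC1, the exchange factor of the transport GTPase Ran, changed by -0.41 ± 0.03 and -0.43 ± 0.03 (edgeR adjusted p = 3.46e-14 and 1.62e-14). The effect was below that in the parent in 48 of the 62 splicing genes and 36 of the 61 nuclear pore genes, where the share over all genes was 13.8%.

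Of 31 nucleotide synthesis genes 22 fell and 1 rose (median -0.19). RRM2, the ribonucleotide reductase subunit of S phase, was at 497, 510.3 and 508 CPM with the inhibitor, against 601, 596 and 608 CPM with vehicle. It was lower in each inhibitor library (-0.25 ± 0.03, edgeR adjusted p = 2.37e-10), as were CTPS1, CTP synthase, at -0.33 ± 0.03 and PRPS2, which makes phosphoribosyl pyrophosphate, at -0.43 ± 0.05 (edgeR adjusted p = 1.41e-10 and 3.12e-10). Of 38 homologous recombination and Fanconi genes 25 fell and 1 rose (median -0.19). The riser was ATM, the kinase that signals DNA breaks, at 96.7, 97 and 92.8 CPM with the inhibitor, against 75.2, 72.5 and 72.6 CPM with vehicle (0.38 ± 0.05, edgeR adjusted p = 1.19e-08), while EXO1, UBE2T and XRCC3 changed by -0.33 ± 0.05, -0.33 ± 0.05 and -0.45 ± 0.07 (edgeR adjusted p = 2.4e-07, 5.22e-07 and 2.46e-06). Of 33 cyclins, CDKs and inhibitors 18 fell and 3 rose; the mitotic cyclin CCNB1 was at 269, 278 and 265 CPM with the inhibitor, against 355, 344 and 351 CPM with vehicle (-0.37 ± 0.03, edgeR adjusted p = 1.46e-13), CCNA2 changed by -0.38 ± 0.04 and PKMYT1, a kinase that holds CDK1 inactive, by -0.64 ± 0.06 (edgeR adjusted p = 5.23e-11 and 4.94e-12). Of 16 histone genes tested 7 fell and 0 rose, with H2AX at 158, 162 and 167 CPM with the inhibitor, against 233, 229 and 227 CPM with vehicle (-0.50 ± 0.04, edgeR adjusted p = 3.06e-15), H1-10 at -0.27 ± 0.04, H3-3B at -0.18 ± 0.03 and H2AZ1 at -0.15 ± 0.03 (edgeR adjusted p = 5.16e-08, 4.92e-07 and 2.14e-05). Poly(A) selection leaves most replication-dependent histone RNAs out, and histone genes have near-identical copies. Tubulins and motors were split, 9 up and 15 down of 43, with TUBB4B at -0.35 ± 0.03, TUBA1C at -0.28 ± 0.03, TUBB at -0.25 ± 0.02 and the microtubule destabiliser STMN1 at -0.31 ± 0.03 (edgeR adjusted p = 1.01e-14, 2.9e-12, 6.69e-12 and 1.65e-11). Tubulins share sequence with paralogues and pseudogenes.

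Mitochondrial lists differed among themselves. Of 74 mitochondrial ribosomal proteins 38 fell and 1 rose (median -0.14); MRPL20 was at 94.5, 99.6 and 98.5 CPM with the inhibitor, against 131, 125 and 133 CPM with vehicle (-0.41 ± 0.04, edgeR adjusted p = 4.46e-11), and MRPL12, MRPS34 and MRPL4 changed by -0.35 ± 0.04, -0.28 ± 0.04 and -0.31 ± 0.04 (edgeR adjusted p = 1.37e-08, 1.12e-07 and 1.22e-07). Of 41 import and dynamics genes 18 fell and 3 rose. The outer membrane import channel TOMM40 was at 201, 188 and 187 CPM with the inhibitor, against 244, 246 and 244 CPM with vehicle, and its receptor TOMM22 changed by -0.37 ± 0.04 (edgeR adjusted p = 4.55e-10). The matrix protease LONP1 was at 341, 323 and 315 CPM with the inhibitor, against 277, 265 and 265 CPM with vehicle. TOMM40 was lower and LONP1 higher in all inhibitor libraries (-0.35 ± 0.04 and 0.28 ± 0.03, edgeR adjusted p = 5.94e-11 and 1.06e-08). The 72 oxidative phosphorylation subunits encoded in the nucleus were seldom called, 7 up and 7 down, both shares under the background; CYC1 changed by -0.18 ± 0.04 and COX7A2 by 0.18 ± 0.04 (edgeR adjusted p = 0.000111 and 0.000665). With 1 library left out, 3 (without vehicle replicate 2) to 6 of them rose and 3 (without vehicle replicate 3 or inhibitor replicate 3) to 10 (without vehicle replicate 2) fell. Of 34 citrate cycle and pyruvate enzymes 8 rose (23.5%) and 5 fell (14.7%), against 18.6% and 18.8% over all genes. IDH1, the cytosolic NADPH-producing isocitrate dehydrogenase, was at 127, 124 and 129 CPM with the inhibitor, against 82.6, 76.2 and 73.7 CPM with vehicle. FH, fumarase, was at 195, 191 and 191 CPM with the inhibitor, against 243, 236 and 241 CPM with vehicle. They moved in opposite directions (0.71 ± 0.05 and -0.32 ± 0.03, edgeR adjusted p = 1.8e-15 and 4.96e-11); the malic enzyme ME1 rose by 0.47 ± 0.06 and pyruvate carboxylase, PC, by 0.59 ± 0.07 (edgeR adjusted p = 4.58e-09 and 6.11e-09). Of 44 peroxisome and fatty acid oxidation genes 9 rose (20.5%) and 2 fell (4.5%), the rises near the 18.6% over all genes. Those that rose included the peroxisomal HSD17B4 at 0.26 ± 0.04, the nuclear receptor PPARA at 0.69 ± 0.12 and the mitochondrial ACADVL at 0.17 ± 0.03 (edgeR adjusted p = 2.8e-06, 6.06e-06 and 7.15e-06).

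Of 49 translation factors 23 fell and 7 rose. PABPC1, the poly(A)-binding protein, was at 1839, 1867 and 1840 CPM with the inhibitor, against 2130, 2169 and 2188 CPM with vehicle. EIF1, which guides start codon choice, was at 568, 572 and 577 CPM with the inhibitor, against 491, 446 and 469 CPM with vehicle. PABPC1 was lower and EIF1 higher in every inhibitor library (-0.23 ± 0.02 and 0.29 ± 0.03, edgeR adjusted p = 1.2e-10 and 1.96e-10), and EEF1A1, a translation elongation factor, the most abundant of the list and a gene with many pseudogenes, rose by 0.12 ± 0.02 (edgeR adjusted p = 5.49e-06). Proteasome subunits fell in 11 and rose in 2 of 42, among them the ubiquitin receptor ADRM1 at -0.25 ± 0.03 and PSMD3 at -0.22 ± 0.03 (edgeR adjusted p = 2.77e-08 and 2.7e-07). In absolute CPM the largest differences came from abundant transcripts. FTH1, the ferritin heavy chain, was at 3116, 3140 and 3111 CPM with the inhibitor, against 2017, 1947 and 2027 CPM with vehicle. SQSTM1, the autophagy receptor, was at 1674, 1722 and 1676 CPM with the inhibitor, against 703, 711 and 686 CPM with vehicle. NQO1, a quinone reductase, was at 1494, 1522 and 1490 CPM with the inhibitor, against 1049, 1010 and 1053 CPM with vehicle. Those 3 were higher with the inhibitor throughout (0.65 ± 0.02, 1.27 ± 0.03 and 0.53 ± 0.02, edgeR adjusted p = 1.97e-24, 4.57e-34 and 1.69e-21). On the other side THBS1, the matrix glycoprotein thrombospondin, was at 1063, 1063 and 1059 CPM with the inhibitor, against 2506, 2566 and 2605 CPM with vehicle. Of the cytoplasmic actins, ACTG1 was at 1550, 1507 and 1543 CPM with the inhibitor, against 2538, 2448 and 2508 CPM with vehicle. ACTB, the other, was at 2381, 2384 and 2427 CPM with the inhibitor, against 3417, 3315 and 3482 CPM with vehicle. All 3 were lower in every inhibitor library (-1.27 ± 0.02, -0.70 ± 0.03 and -0.51 ± 0.02, edgeR adjusted p = 4.62e-35, 2.71e-25 and 2.34e-21), and NPM1, the nucleolar chaperone, changed by -0.24 ± 0.02 (edgeR adjusted p = 4.41e-12). FTH1, the actins and NPM1 have processed pseudogenes that can share reads.

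Of 53 G protein-coupled receptors and arrestins 14 fell, 2 of them at least 2-fold, and 5 rose, and 3 rose without vehicle replicate 2. F2R, the thrombin receptor, was at 56.4, 50.2 and 54 CPM with the inhibitor, against 93.7, 105 and 97.5 CPM with vehicle. LPAR1, a lysophosphatidic acid receptor, was at 2.12, 1.65 and 2.14 CPM with the inhibitor, against 7.46, 10.6 and 7.43 CPM with vehicle. S1PR2, a sphingosine phosphate receptor, was at 20.4, 26.6 and 21.8 CPM with the inhibitor, against 14.1, 13.4 and 14.6 CPM with vehicle. F2R and LPAR1 fell and S1PR2 rose (-0.88 ± 0.05, -2.08 ± 0.20 and 0.71 ± 0.10, edgeR adjusted p = 9.24e-18, 2.38e-11 and 1.95e-07). ALPK2, an α-kinase and like the next 3 genes among the 10 largest falls, was at 3.93, 3.69 and 5.22 CPM with the inhibitor, against 18.7, 19.3 and 23.3 CPM with vehicle. CPA4, a secreted carboxypeptidase, was at 45.3, 48 and 49.5 CPM with the inhibitor, against 212, 217 and 217 CPM with vehicle. TGM2, a protein-crosslinking transglutaminase, was at 75.4, 68.7 and 70.5 CPM with the inhibitor, against 219, 209.5 and 212 CPM with vehicle. EVA1A, a lysosome and ER protein of autophagy, was at 4.88, 4.57 and 4.96 CPM with the inhibitor, against 17.4, 16 and 15.1 CPM with vehicle. Their groups do not overlap by the rule that picked the largest falls, and the changes were -2.24 ± 0.14, -2.17 ± 0.04, -1.58 ± 0.04 and -1.75 ± 0.13 (edgeR adjusted p = 3.35e-17, 4.57e-34, 6.48e-30 and 1.75e-14). ANKRD1, CCN1 and CCN2, known targets of YAP, and the BMP-linked genes ID3 and SMAD6 were also among these 10, with EFEMP1, a fibulin, which fell by 1.49 ± 0.12 on the log2 scale (edgeR adjusted p = 1.45e-13).

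The share that fell in the next 4 lists was close to or under the 18.8% over all genes. It was 15.9% for ion channels, 19.4% for calcium handling, 15.9% for clathrin and 10.3% for p53 targets. The shares that rose were all above the 18.6% over all genes. They were 40.9% for ion channels, 32.3% for calcium handling and 37.9% for p53 targets, and lowest for clathrin, with 11 of 44 genes. Of 44 ion channel and pump genes 18 rose and 7 fell, with 11 rising without inhibitor replicate 3 and 4 falling without vehicle replicate 3 or inhibitor replicate 2. The chloride transporter gene CLCN3 rose by 0.43 ± 0.05 (edgeR adjusted p = 3.19e-10). Of 31 calcium handling genes 10 rose and 6 fell; the calmodulin genes CALM2 and CALM3, which encode the same protein, changed by -0.42 ± 0.04 and -0.34 ± 0.03 and the calcineurin regulator RCAN1 by 0.26 ± 0.04 (edgeR adjusted p = 3.81e-10, 2.2e-11 and 1.63e-06). Of 44 clathrin and endosome genes 11 rose, or 7 without inhibitor replicate 3, and 7 fell: the clathrin heavy chain CLTC rose by 0.19 ± 0.03 while the light chain CLTB changed by -0.30 ± 0.04 (edgeR adjusted p = 3.73e-07 and 3.95e-07). Of 29 p53 targets 11 rose, or 7 without vehicle replicate 3 or inhibitor replicate 3, and 3 fell. PLK2, a polo-like kinase, was at 93, 86.7 and 93.3 CPM with the inhibitor, against 173, 179.7 and 176 CPM with vehicle (-0.95 ± 0.04, edgeR adjusted p = 3.9e-22), against rises of the death receptors TNFRSF10B and FAS by 0.37 ± 0.04 and 0.70 ± 0.11 (edgeR adjusted p = 4.53e-10 and 3.41e-06). In the BCL2 family 6 of 18 rose and 4 fell. The survival gene BCL2L1 was at 63.8, 66.7 and 67.9 CPM with the inhibitor, against 109, 99 and 102 CPM with vehicle, below vehicle in each library (-0.65 ± 0.05, edgeR adjusted p = 1.11e-14), while the pro-apoptotic gene PMAIP1 rose by 0.44 ± 0.06, BCL2L2 by 0.42 ± 0.07 and MCL1 by 0.16 ± 0.03 (edgeR adjusted p = 3.71e-07, 2.81e-06 and 3.44e-06).

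The HCT116 knockout shows how far the response was shared, since the comparisons have no library in common. There 32.9% of 14637 genes were called in either direction. Of the 5033 genes called in the A375 knockout, 1961 (39.0%) were called the same way in the HCT116 knockout and 361 the opposite way. The effect itself differed between the knockouts in 2736 genes (18.7%), higher in A375 in 1520 (10.4%) and lower in 1216 (8.31%). The shares higher in A375 were larger in the 4 secretory lists that follow and smaller in GPI anchor synthesis, with 1 of 25 genes higher and 0 lower. For ER translocation the effect was higher in A375 in 16 of 25 genes and lower in 0, and in the HCT116 knockout 3 rose and 7 fell. For Golgi N-glycan genes it was higher in 9 of 22 and lower in 3, for dolichol and oligosaccharyltransferase genes higher in 13 of 38 and lower in 2, and for glycosaminoglycan genes higher in 11 of 38 and lower in 1. SEC24D was called in both lines, at 1.70 ± 0.05 in A375 and 0.30 ± 0.07 in HCT116, a difference of 1.40 ± 0.09 (edgeR adjusted p = 1.2e-20). The proteasome list was higher in A375 in 13 of 42 genes, with 11 falling in the A375 knockout and 26 in the HCT116 knockout. Histone genes gave the reverse, with a lower effect in A375 in 6 of 16 and medians of -0.13 in A375 and 0.21 in HCT116. FOXO and MondoA targets had medians of 0.46 in A375 and 0.44 in HCT116, but the effect was higher in A375 in 6 of 32 genes and lower in 6. Of 74 mitochondrial ribosomal proteins 38 fell in the A375 knockout and 41 in the HCT116 knockout, and the effect was higher in A375 in 5 and lower in 0.

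**Figure D5:**
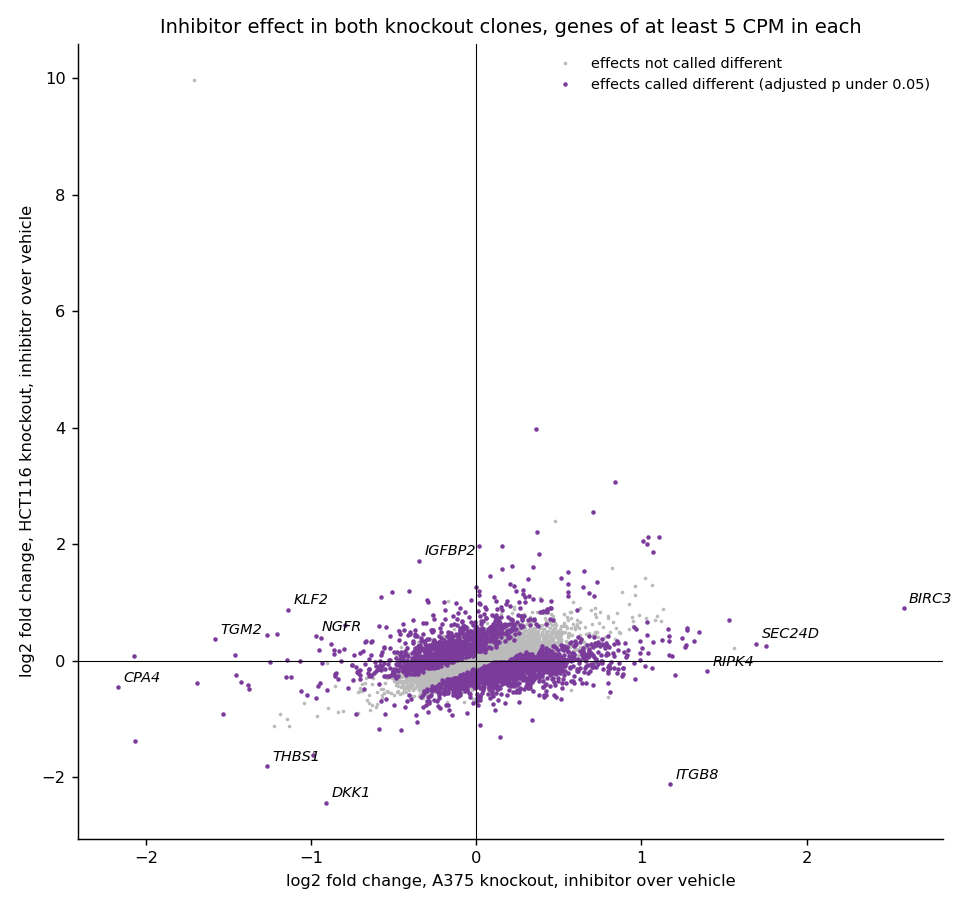
Log2 fold change (inhibitor over vehicle) in the A375 PTDSS2 knockout (x axis) and the HCT116 PTDSS2 knockout (y axis) for 9872 genes with a mean of at least 5 CPM in each; each point is 1 gene, purple where the effects differed with an adjusted p under 0.05. ITGB8 lies at 1.17 and -2.11; the grey point at the top is EIF3CL, a gene with a near-identical copy, whose HCT116 value has a standard error of 5.90.

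Genes off the diagonal of the plot of both knockouts included ITGB8, which rose in the A375 knockout as given above and was lower in the HCT116 knockout, at 2.47, 2.08 and 3.40 CPM with the inhibitor, against 12.5, 10.5 and 11.3 CPM with vehicle; the difference of effects was 3.29 ± 0.23 (edgeR adjusted p = 7.29e-15). RIPK4 was at 15.1, 15.6 and 13.1 CPM with the inhibitor, against 15.9, 16.5 and 17.1 CPM with vehicle in the HCT116 knockout, where it was not called. WIPI1 was not called there either, at 20.1, 14.7 and 18.7 CPM with the inhibitor, against 15.8, 14.8 and 14.4 CPM with vehicle. The effects in the knockouts differed by 1.58 ± 0.14 (edgeR adjusted p = 3.35e-14) and 1.5 ± 0.16 (edgeR adjusted p = 3.4e-11). BIRC3 was at 6.05, 9.36 and 6.95 CPM with the inhibitor, against 3.53, 4.16 and 4.07 CPM with vehicle in HCT116, a rise in both lines that was larger in A375 by 1.68 ± 0.24 (edgeR adjusted p = 1.71e-07). NRP2 was under 1 CPM in all HCT116 knockout libraries, as were EFEMP1 and IGFBP4, an IGF-binding protein with 192, 197 and 195 CPM with the inhibitor, against 335, 318 and 337 CPM with vehicle in the A375 knockout, so their difference of effects has no usable size. IGFBP2, another IGF-binding protein, was at 90.5, 95.4 and 86.8 CPM with the inhibitor, against 111, 121 and 114 CPM with vehicle in the A375 knockout. In the HCT116 knockout it was at 516, 488 and 466 CPM with the inhibitor, against 152, 149.9 and 145 CPM with vehicle. KLF2, a shear-responsive Krüppel-like factor, was at 8.49, 7.67 and 10.3 CPM with the inhibitor, against 18.7, 21.4 and 18.9 CPM with vehicle in the A375 knockout. In the HCT116 knockout it was at 48.4, 48 and 41.4 CPM with the inhibitor, against 28.1, 23.7 and 23.4 CPM with vehicle. Both genes fell in A375 and rose in HCT116 without overlap in either line, and the effects differed by -2.06 ± 0.06 (edgeR adjusted p = 2.76e-37) and -2.01 ± 0.14 (edgeR adjusted p = 1.31e-18). EVA1A had no called change in HCT116, at 1.23, 2.23 and 3.09 CPM with the inhibitor, against 1.93, 1.91 and 1.5 CPM with vehicle (-1.99 ± 0.36 for the difference, edgeR adjusted p = 1.33e-05).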

How the data were processed

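RNA was measured in 24 libraries (8 groups of 3). The submitters' processing notes name STAR 2.4.2a, RSEM 1.2.23 and the hg19 build; which annotation and strand setting were used is not given in the sources used here. Per the file headers, the authors deposited expected counts, which share out reads that match several genes; they were rounded here. Deposited TPM (per the file headers too) is scaled by length and was kept as a level in tables, with no test. Each library lists 25343 genes, of which 25220 matched a symbol in a RefSeq table (GRCh38.p14, names and promoter sequences only).

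Counts were scaled with TMM and filtered by edgeR's default (minimum count 10, minimum total 15). The 12 A375 libraries were fitted together with edgeR 4.0.16 in R 4.3.3 (quasi-likelihood F test, two-sided, Benjamini-Hochberg over all genes); the knockout minus parent effect came from the same fit and the comparison with HCT116 from all 24 libraries. Each ± beside a log2 fold change is its standard error (n = 3 libraries per group). Alternative tools were DESeq2 1.42.0 and limma-voom (limma 3.58.1). Other settings changed the scaling (DESeq2's factors, library size), the filter (none, a mean of at least 5 CPM), the libraries fitted, or added a replicate block.

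The comparison, the 43 gene lists and the markers were chosen with earlier results of these data known, so list counts are descriptions. Genes were named by rule: the synthases and PISD, the 10 largest rises and falls (mean of at least 8 CPM, no overlap), the 6 largest rises and falls in CPM, up to 4 called members per list by adjusted p, and 5 genes on each side that differed most from HCT116; unnamed loci, small RNAs, antisense and readthrough genes were skipped. Among the called genes left after this skipping, no gene went between under 0.5 and at least 3 CPM. Genes named outside this rule were chosen after their values were seen. Some genes and 1 list that the rule takes in are not reported here.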

Additional observations from a re-analysis of the deposited data

Results flagged for a closer look

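The inhibitor effect differed between genotypes in 3615 genes (A375 knockout against A375 parent) and between cell lines in 2736 genes (A375 knockout against HCT116 knockout), each by a test of the difference in edgeR.

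Of the genes named, 17 with a mean of at least 0.5 CPM in each HCT116 knockout group were called in opposite directions in the knockout clones, and their effects differed past an adjusted p of 0.05. As log2 effects in the A375 knockout minus those in the HCT116 knockout, the values were ITGB8 (3.29), S1PR2 (1.12), MGAT4B (0.62), CHPF (0.62), SEC61A1 (0.57), CLTC (0.30) and MCL1 (0.27) among genes that rose in A375 and fell in HCT116. They were IGFBP2 (-2.06), KLF2 (-2.01), TGM2 (-1.95), NGFR (-1.39), ENG (-1.33), F2R (-1.16), PLK2 (-1.14), ID1 (-1.01), MT2A (-0.74) and H1-10 (-0.51) among genes that fell in A375 and rose in HCT116. Groups of 3 libraries are too small for a test of outlying libraries.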

How the results depend on the processing

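Genes called in the A375 knockout numbered 5033, and 4807 to 5055 with other scaling, filters, limma-voom, a replicate block or only the 6 libraries compared; DESeq2 called 3826. With 1 library left out they numbered 4347 to 4582 (2142 to 2443 up and 2139 to 2280 down). Genes whose effect differed from the parent numbered 3198 to 3450 (1559 to 1807 up and 1627 to 1736 down) in those fits and 2610 with DESeq2, against 3615, and genes whose effect differed from the HCT116 knockout 2399 to 2565 (1326 to 1451 up and 1049 to 1142 down) and 2287 with DESeq2, against 2736. Scaling by library size alone put 55.4% of calls upwards, against 49.8%. No pairing of libraries by replicate number was detected: deviations of same-numbered libraries from their group means correlated at 0.053, -0.016 and -0.024. Such values cannot exclude a shared culture or day of small effect. With a replicate block 5051 genes were called, 2507 up and 2544 down, 3645 differed from the parent and 2789 from the HCT116 knockout.

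Over 232 named and marker genes, 3202 of the values kept direction and side of the threshold, 42 lost a call and 1 gained one (MITF without vehicle replicate 2). The 10 genes that lost a call in some setting were ADAM10, CXCL1, CXCL2, EDNRB, NFKB1, PIGT, PIGW, PTDSS1, PTDSS2 and RORA. Of 1204 list counts 1116 stayed within 1.5 times; with DESeq2, 5 matrix genes fell in place of 8, 3 MAPK genes in place of 6 and 2 Wnt genes in place of 5, and 5 Notch genes rose in place of 9. Groups of 3 libraries and 1 clone per line limit every statement: variation between clones or cultures was not measured. Low genes carry large errors, so an uncalled low gene was not shown to be unaltered.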

Other observations

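Further genes outside the gene lists changed at least 2-fold in the A375 knockout; they were chosen after their values were seen. SHISA2, a regulator of receptor maturation in the ER, was at 205, 189 and 201 CPM with the inhibitor, against 78.6, 79 and 80.6 CPM with vehicle. IL24, a cytokine of the interleukin family, was at 217, 220.2 and 214 CPM with the inhibitor, against 96.9, 105 and 96.2 CPM with vehicle. CEMIP, a protein of hyaluronan breakdown, was at 234, 207 and 231 CPM with the inhibitor, against 113, 106 and 110.4 CPM with vehicle. All 3 rose without overlap (1.32 ± 0.04, 1.13 ± 0.04 and 1.03 ± 0.05, edgeR adjusted p = 7.69e-27, 2e-25 and 1.27e-13). IGFBP3, an insulin-like growth factor binding protein, rose by 1.14 ± 0.05 (edgeR adjusted p = 9.05e-22) and KYNU, kynureninase of tryptophan breakdown, by 1.08 ± 0.06 (edgeR adjusted p = 4.87e-19). CAV1, the coat protein of caveolae, which gather phosphatidylserine, was at 203, 215 and 197 CPM with the inhibitor, against 476, 463 and 479 CPM with vehicle. KRT80, a keratin, was at 98.4, 89.5 and 90.6 CPM with the inhibitor, against 231, 213 and 224 CPM with vehicle. IL7R, the receptor subunit for a lymphoid interleukin, was at 21.4, 22.1 and 23.4 CPM with the inhibitor, against 47.6, 52.8 and 51.7 CPM with vehicle. These 3 fell without overlap (-1.21 ± 0.03, -1.27 ± 0.04 and -1.18 ± 0.07, edgeR adjusted p = 5.57e-29, 1.87e-26 and 3.28e-17), and for all 8 genes the effect differed from that in the parent in the same direction.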
